A study of Mus musculus with 12 samples.

Results

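The liver of female mice that lack estrogen receptor alpha was compared with wild-type liver after a fat-rich diet. Of the 12 arrays of the study, 6 made up this comparison, namely the 3 arrays labelled aERKO and the 3 labelled WT from mice on the high-fat diet. The arrays were chosen by their labels alone. All mice were adult females of a B6.129 background. WT mice carried the intact gene (Esr1+/+) and aERKO mice the homozygous knockout (Esr1-/-), with no cell type named for the deletion. The high-fat diet was a research diet with 60 kcal% fat. The other 6 arrays came from mice of the same genotypes on NIH-31 diet, called normal diet here, with 3 arrays each, and both diets were fed for 2 weeks. RNA came from whole liver, so fewer cells of a type and less RNA per cell cannot be told apart. Whether the 3 samples of a group were 3 different mice is not given in the labels, and the p-values rest on sample-to-sample spread that could be technical only.

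Estrogen receptor alpha is a nuclear receptor that binds estrogen and regulates transcription. In rodents the liver differs between the sexes in its cytochromes P450, sulfotransferases, transporters and urinary proteins, and most of these differences follow the sex-specific rhythm of growth hormone release from the pituitary. A knockout that is not limited to hepatocytes also removes the receptor from the brain, pituitary and ovary. Fat that reaches the liver is esterified to triglyceride, stored in lipid droplets, secreted in lipoproteins or oxidised in mitochondria and peroxisomes.

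Expression was measured as linear MAS5 signals, which the authors had scaled to a trimmed mean of 500 on each array. A gene was represented by its brightest probe set, and 12263 genes passed the filter on low signals. Differences are aERKO minus WT on the scale of log2(signal + 16), given with the standard error (SE) of the limma fit to all 12 arrays. Genes with an adjusted p under 0.05 are termed called. The 3 values of a group are given in the order of replicates 1 to 3, and group means are given ± SD of 3 arrays. The 6 arrays had medians of 75.6 to 93.5 and correlated at 0.958 to 0.963 within groups and at 0.952 to 0.960 between them. The 7 hepatocyte markers had mean log2 signals of 14.23 to 14.63. The 12 pancreatic acinar markers stood at 6.0, 9.66 and 12.2 in WT and at 5.35, 5.95 and 5.8 in aERKO, and 0 of the 12 were called by limma (0 at an unadjusted p under 0.05). The 11 skeletal muscle markers stood at 6.07 to 6.29 in WT and at 5.61, 8.94 and 5.91 in aERKO. WT replicates 2 and 3 were thus high in acinar transcripts and aERKO replicate 2 in muscle transcripts. Without the 4 arrays of the study that held acinar transcripts (acinar-positive), which leaves 1 WT high-fat array assumed to vary like the other groups, 60 genes were called, 52 of them among those called with all arrays. With the acinar and muscle scores as covariates 109 genes were called, 101 of them the same.

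Esr1 itself gave signals of 3212, 3676 and 3140.2 in WT and of 885, 663 and 858 in aERKO. The groups were far apart, with a log2 difference of -2.05 ± 0.204 (SE, adjusted p = 8.55e-05), a 4.13-fold lower signal. A second probe set fell alongside, from 1046, 1259 and 786 in WT to 197, 222 and 241 in aERKO. Signal of the brighter probe sets remained above the array median in the knockout, and the position of the probes with respect to the targeted stretch was not examined.

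In all, 243 genes (1.98% of those tested) differed between the genotypes on high-fat diet by limma with Benjamini-Hochberg adjustment. Of these, 135 (1.1%) were higher and 108 (0.881%) lower in aERKO, and 88 differed at least 2-fold, 46 of them higher and 42 lower. The median size of a called difference was 0.81 for the higher genes and -0.89 for the lower ones, against -0.03 over all genes, of which 45.6% had positive differences. All 243 had 3 aERKO arrays on one side of the 3 WT arrays, as did 22.5% of all genes tested. These shares of all genes are the background for the counts given for gene lists. The lists were chosen with earlier results of these data known, so their counts are descriptive. The split between directions depended on scaling. With each array centred on its median, which moves every difference up by 0.06, 71.0% of calls were higher, against 55.6% with the deposited scaling and 57.8% after quantile normalization. The count also depended on single arrays. It was 122 without WT replicate 1, 132 without WT replicate 2, 174 without WT replicate 3, 122 without aERKO replicate 1, 108 without aERKO replicate 2 and 304 without aERKO replicate 3. Of the 243 genes, 93 were called in each of these 6 fits. The fold of 6 called genes moved by over 1.5 times. Sult2a2 ranged from -8.0002 to -5.99 on the log2 scale and Cyp3a16 from -7.25 to -5.77, and both moved that far without WT replicate 2 or WT replicate 3. Sult3a1 reached -6.46 without WT replicate 3, Cyp4a12a 5.58 without aERKO replicate 1, Cidea 5.38 without aERKO replicate 3 and Themis 1.68 without WT replicate 2.

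**Figure D1:**
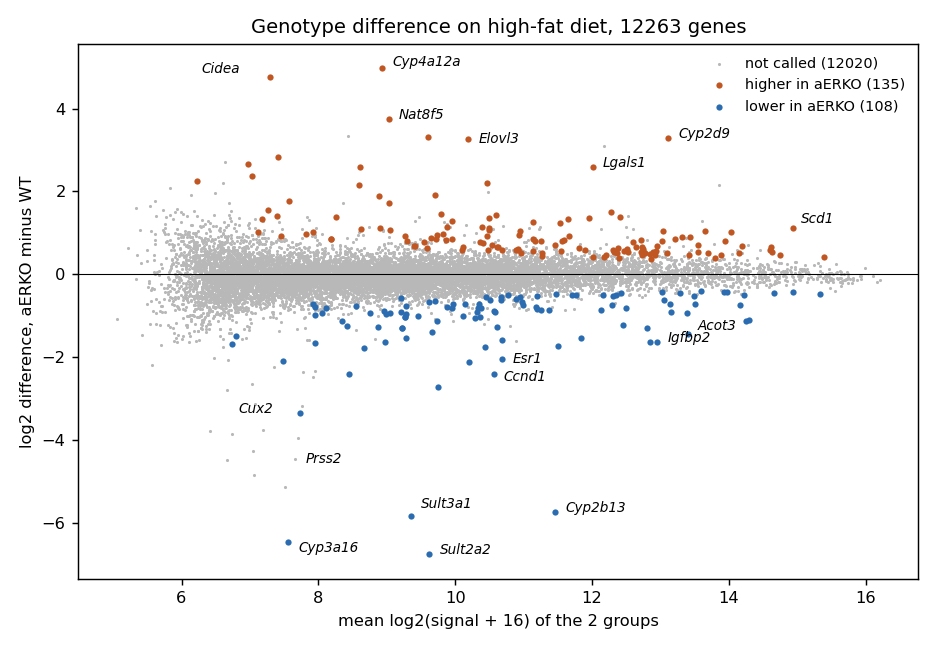
Each point is 1 of 12263 genes, with the mean log2(signal + 16) of both groups on the x axis and the log2 difference aERKO minus WT on high-fat diet on the y axis. Orange points are the 135 genes called higher and blue points the 108 called lower, and the grey points far below 0 at low mean signal include Prss2, a pancreatic gene.

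Several genes that are typical of male liver were higher in the female knockout. Of the 15 male-biased genes tested, 7 were called higher and 0 lower, and the median difference of the 15 was 0.71. The other 8 were not called, and 2 of the 15 had negative differences. Cyp4a12a, a fatty acid hydroxylase of male liver, gave 47.2, 136 and 53.4 in WT and 1162, 3346 and 5212 in aERKO. The aERKO arrays were spread widely, with replicate 1 lowest, but all lay far above the WT arrays, and the log2 difference was 4.97 ± 0.53 (adjusted p = 0.000124). Cyp2d9, a steroid hydroxylase of male liver, stood at 3242, 3226 and 2177 in WT and at 27396, 30587 and 25348 in aERKO, a 9.72-fold difference (adjusted p = 3.54e-08). Elovl3, which elongates saturated and monounsaturated fatty acids, stood at 308, 436 and 348 and at 3953, 3303 and 3545 in the same order, a 9.58-fold difference (adjusted p = 7.42e-07). For both genes the groups lay far apart.

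Of 5 tested genes of the N-acetyltransferase 8 family, 2 were called higher and 0 lower. Nat8 stood at 269, 256 and 181 in WT and at 2133, 2536 and 2704 in aERKO, and the difference was 3.31 ± 0.27 (adjusted p = 1.32e-05). Nat8f5, outside the male-biased list, stood at 125, 142 and 114 in WT and at 1737, 1910.5 and 2039 in aERKO, with a difference of 3.74 ± 0.18 (adjusted p = 5.41e-08). The spread within each group was small beside the gap. The other 3 were not called, all 5 had positive differences, and the median of the 5 was 0.59. Transcripts of near-identical relatives can bind each other's probes in this family, as in the Cyp2b, Cyp3a, Sult, Slc22a, Acot and hepcidin families. Values of single members are uncertain in that respect.

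The remaining male-biased calls were smaller. Susd4, which encodes a complement inhibitor, stood at 90.1, 74.5 and 95.8 in WT and at 293, 348 and 367 in aERKO (1.78 ± 0.36, adjusted p = 0.0188). It kept the call in 1 of the 6 fits that leave out 1 array, and the adjusted p rose to 0.0906 in the others (lost without WT replicate 1 or 2 or aERKO replicate 1, 2 or 3). The glucuronosyltransferase Ugt2b1 was higher by 0.71 ± 0.11 and the glutathione transferase Gstp1 by 0.65 ± 0.096, and both kept the call in all 6 of these fits. Slco1a1, an organic anion transporter of male liver, was listed at 62.95, 379 and 24.9 in WT and at 688, 1105 and 1647 in aERKO. These arrays did not overlap, but the difference of 3.34 ± 0.82 was not called (adjusted p = 0.0545). The terminal complement genes C6 (0.96 ± 0.24, adjusted p = 0.0563) and C8b (0.59 ± 0.14, adjusted p = 0.0545) also lay just outside the threshold. In the fit without the 4 acinar-positive arrays 4 of the 15 genes were called higher, and the median of the 15 was 0.68.

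Many genes that are typical of female liver were lower, and some were close to the bottom of the signal range. Of the 24 female-biased genes tested, 13 were called lower and 0 higher, with a median of -0.85. A gene can stand in several lists, so counts of different lists are not independent. Cyp2b13, a cytochrome P450 of female liver, stood at 22210, 20111 and 19544 in WT and at 616, 436 and 179.6 in aERKO (-5.75 ± 0.29, adjusted p = 6.20e-08). The WT arrays agreed closely while the aERKO arrays differed among themselves, and the group means were 53.9-fold apart on the scale with the pseudocount. Sult3a1, a sulfotransferase, stood at 6323, 9107 and 2066 in WT and at 88.7, 57.4 and 67.1 in aERKO (-5.84 ± 0.47, adjusted p = 1.16e-05). Sult2a2, which sulfonates steroids and bile acids, stood at 15512, 1468 and 23998 and at 42.5, 52.7 and 90.7 (-6.77 ± 0.79, adjusted p = 0.000291). WT replicate 2 was far below its companions for Sult2a2, yet above every aERKO array.

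Cyp3a16, another cytochrome P450 of female liver, stood at 2029, 570 and 4546 in WT and at 9.17, 1.23 and 2.47 in aERKO (-6.46 ± 0.64, adjusted p = 8.48e-05). The aERKO signals of Cyp3a16, Sult2a2 and Cux2 were under the median of their arrays in every replicate, and their fold differences are therefore rough. A related gene, Cyp3a44, stood at 837, 511 and 1131 in WT and at 161, 116 and 132 in aERKO (-2.405 ± 0.29). The organic anion transporters Slc22a26 (-2.73 ± 0.21) and Slc22a27 (-1.38 ± 0.22) were lower as well, and so was Slc22a29 outside the list (-0.905 ± 0.16, adjusted p = 0.00839). Slc22a26 fell from 2092, 1828 and 2805 in WT to 358, 264 and 342 in aERKO. Hao2, a peroxisomal hydroxyacid oxidase, stood at 2808, 1772 and 3217 in WT and at 1076, 581 and 644 in aERKO (-1.75 ± 0.296, adjusted p = 0.005995). Cyp17a1, a steroid hydroxylase and lyase, stood at 3752, 5762 and 6856 in WT and at 1759.8, 1494 and 1494 in aERKO (-1.74 ± 0.22, adjusted p = 0.000518). For both genes the highest aERKO array was below the lowest WT array. The peroxisomal transporter Abcd2 (-1.26 ± 0.22) and the drug efflux pump Abcb1a (-0.93 ± 0.17) were called too, but each lost the call without WT replicate 1 or without aERKO replicate 2 (adjusted p up to 0.0558 and 0.0605). In the fit without the 4 acinar-positive arrays 8 of the 24 genes were called lower, with a median of -0.91.

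**Figure D2:**
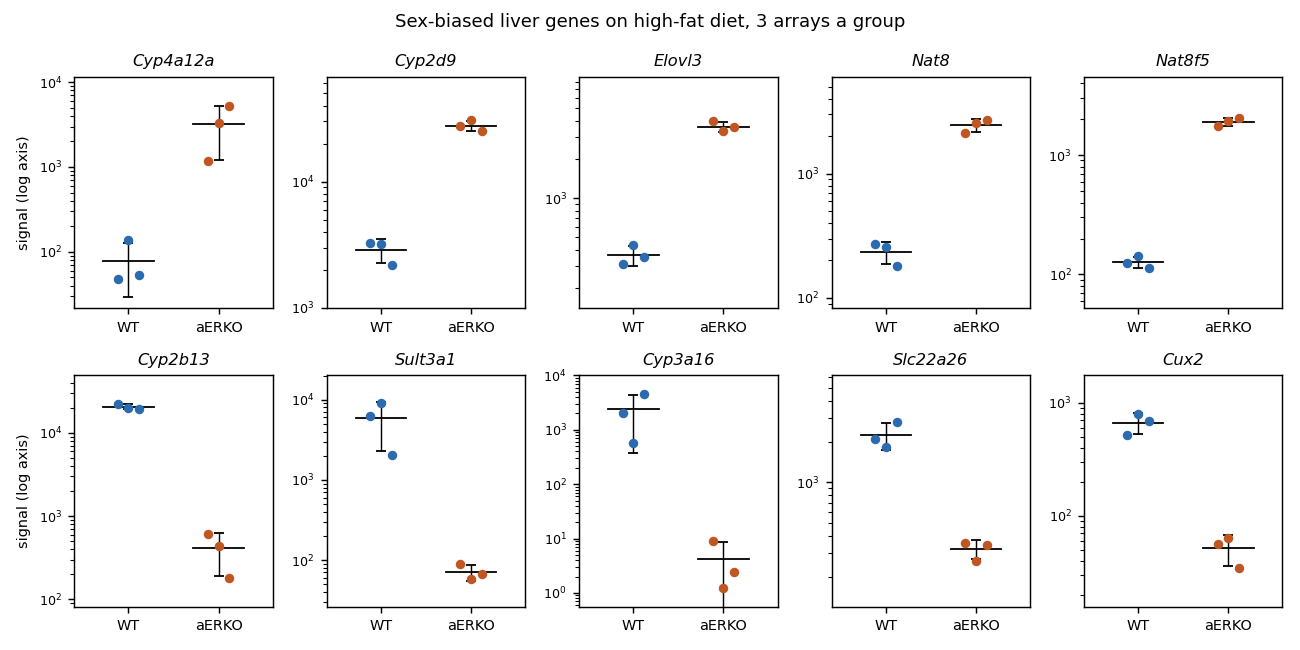
Signals of 10 genes of the sex-biased lists and the Nat8 family on each high-fat array, on a log axis, with WT in blue and aERKO in orange and 3 arrays a group. Horizontal lines are group means and bars are SD, which run off the axis where the SD reaches the mean, and in all 10 genes the groups are apart.

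Among 27 genes listed as regulators of sex-dependent liver expression, 4 were called lower and 0 higher, with a median of -0.29. Next to Esr1, the gene knocked out, these were Cux2, Trim24 and Igfbp2. Igfbp2 encodes a secreted binding protein, not a regulator of transcription, and was listed with them. Cux2, a repressor found in female liver, stood at 518, 793 and 694 in WT and at 56.7, 64.1 and 34.3 in aERKO (-3.34 ± 0.47, adjusted p = 0.00148). Of its other bright probe sets, 1 moved the same way (-1.55) and 1 did not (0.05), at 389.8, 337 and 191 in WT and 372, 258 and 294 in aERKO. Trim24, a nuclear receptor cofactor, differed little (-0.54 ± 0.13, adjusted p = 0.0499) and lost the call whichever of the 6 arrays was left out (adjusted p up to 0.207). Bcl6, a repressor found in male liver, stood at 488, 796 and 577 in WT and at 819, 2266 and 1539 in aERKO. The groups did not overlap, but the difference of 1.203 ± 0.49 was not called (adjusted p = 0.247).

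Igfbp2 encodes a plasma protein that binds insulin-like growth factors, and its arrays were even within groups. It stood at 13332, 14837 and 13894 in WT and at 4110.5, 4883 and 4498 in aERKO, 3.11-fold lower (-1.64 ± 0.17, adjusted p = 0.000117). Of 24 genes of secreted hormones and hepatokines, 2 were called lower and 0 higher, with a median of -0.104, and Inhba was the other. Inhba, the subunit of activin A, stood at 544, 593 and 412 in WT and at 154, 247 and 228 in aERKO (-1.25 ± 0.21, adjusted p = 0.00645). Enho, which encodes adropin, stood at 419, 628 and 218 in WT and at 76.5, 143 and 153 in aERKO without overlap, but missed the threshold (-1.58 ± 0.38, adjusted p = 0.0523). Ccnd1, the gene of cyclin D1, which moves cells through G1 and is induced by estrogen in breast, was the only called member of the 25 cell cycle genes and of the 15 genes known as estrogen receptor readouts in other tissues. It stood at 4003, 3061 and 3428 in WT and at 593, 731 and 598 in aERKO, 5.34-fold lower (adjusted p = 6.75e-05). All 3 of its bright probe sets pointed down. Igfbp2 and Ccnd1 were called without the 4 acinar-positive arrays, and Inhba was not.

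Cidea, Cidec and Fitm1, which act on lipid droplets, were higher in the knockout on the high-fat diet. Of 25 genes of lipid droplet proteins and lipases, 3 were called higher and 0 lower, 15 had positive differences, and the median was 0.11. Cidea, which drives the fusion of lipid droplets, stood at 4.29, 35.5 and 9.62 in WT and at 1058, 1428 and 336 in aERKO (4.77 ± 0.52, adjusted p = 0.000151). Its WT signals were all under the array median, which makes the fold rough, and aERKO replicate 3 was lower than its companions. Cidec, a related droplet protein, was also lowest among the knockouts in replicate 3, with 143, 74.7 and 259.8 in WT and 1333, 1066 and 594 in aERKO (2.603 ± 0.47, adjusted p = 0.00882). The call of Cidec was lost without WT replicate 2, aERKO replicate 1 or aERKO replicate 2 (adjusted p up to 0.0556). Fitm1, which partitions triglyceride into droplets, stood at 607, 508 and 851 in WT and at 3591, 3000.1 and 2527 in aERKO, 4.61-fold higher (adjusted p = 4.38e-05), and was called in every alternative tried. All 3 genes were also called without the 4 acinar-positive arrays, and so were Mogat1 and Scd1.

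Mogat1 and Scd1, enzymes of triglyceride and fatty acid synthesis, were higher as well. Of 15 triglyceride synthesis genes, 1 was called higher, Mogat1, which acylates monoacylglycerol. It stood at 284, 78.2 and 203 in WT and at 824, 954 and 656 in aERKO (2.15 ± 0.32, adjusted p = 0.00219). WT replicate 2 was the lowest array for Mogat1, for Cidec and for Scd1. Scd1, the stearoyl-CoA desaturase, stood at 21181, 13222 and 33766 in WT and at 52753, 51368 and 36579 in aERKO (1.13 ± 0.24, adjusted p = 0.03003). WT replicate 3 came close to aERKO replicate 3, and it is among the arrays absent from the fit without the acinar-positive arrays. The call of Scd1 was lost without WT replicate 1 or 2 or aERKO replicate 1 or 2 (adjusted p up to 0.142). Its second probe set gave 418, 243 and 535 in WT and 1517, 1181 and 795 in aERKO. Scd1 was the 1 call among 18 genes of de novo lipogenesis, whose median was 0.02, and the 15 triglyceride synthesis genes split into 7 positive and 8 negative. Thrsp, a lipogenic factor, had a mean of 8016 ± 1171 in WT and of 19978 ± 5028 in aERKO and was not called (1.29 ± 0.46, adjusted p = 0.188).

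Of 16 genes of fatty acid uptake and binding, 1 was called higher and 1 lower. Dbi, the acyl-CoA binding protein, was higher by 0.47 ± 0.09 (adjusted p = 0.0178), a call that was lost without WT replicate 1 or 2 or aERKO replicate 1 or 2. Vldlr, the receptor of very low density lipoprotein, stood at 2192, 1511 and 1725 in WT and at 1048, 741 and 789 in aERKO (-1.06 ± 0.16, adjusted p = 0.00266), and all 6 of its bright probe sets pointed down. Cd36, the fatty acid translocase, had a mean of 4389 ± 1590.2 in WT and 9387 ± 2982 in aERKO and missed the threshold (1.105 ± 0.28, adjusted p = 0.0611). Of 24 lipoprotein genes 3 were called lower and 0 higher, with a median of -0.101. Besides Vldlr these were Apom, an apolipoprotein of high density lipoprotein, and Lcat, which esterifies plasma cholesterol. Apom stood at 14538, 14609 and 15428 in WT and at 8260.1, 8094 and 6950.1 in aERKO (-0.94 ± 0.15, adjusted p = 0.00361). Lcat differed by -0.46 ± 0.09 (adjusted p = 0.0205) and kept the call in 2 of the 6 fits with an array left out, with an adjusted p up to 0.1 in the others (lost without WT replicate 2 or 3 or aERKO replicate 1 or 2). Vldlr was called without the 4 acinar-positive arrays, and Dbi, Apom and Lcat were not.

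PPAR alpha is the nuclear receptor that induces fatty acid oxidation. Among genes listed as its targets or for fatty acid oxidation, those called were lower, and genes kept in other lists are not covered here. Of 36 genes of this group, 5 were called lower and 0 higher, 30 had negative differences, and the median was -0.19, or -0.13 with arrays centred on their medians. Ehhadh, the peroxisomal bifunctional enzyme, stood at 25416, 23557 and 22304 in WT and at 14636, 13180 and 14883 in aERKO (-0.74 ± 0.09, adjusted p = 0.000612). It was called in every alternative tried, and its groups were narrow. The acyl-CoA thioesterase Acot3 stood at 19376, 18017 and 16131 in WT and at 5742, 7014 and 7004 in aERKO (-1.44 ± 0.27, adjusted p = 0.0124), and its cytosolic relative Acot1 at 8523, 6349.5 and 11515 and 2991, 3713 and 4462 (-1.21 ± 0.28, adjusted p = 0.0401). Acot3 lost the call without WT replicate 1, WT replicate 2 or aERKO replicate 1 (adjusted p up to 0.0706), and Acot1 kept it in 2 of the 6 fits (up to 0.173, lost without WT replicate 1 or 3 or aERKO replicate 1 or 2). Cyp4a31, a fatty acid hydroxylase, differed by -1.02 ± 0.21 and Bdh1, the ketone body enzyme, by -0.42 ± 0.098. Each of these kept the call in 1 of the 6 fits (lost without WT replicate 1, 2 or 3 or aERKO replicate 1 or 2 for Cyp4a31 and without WT replicate 1 or 2 or aERKO replicate 1, 2 or 3 for Bdh1, adjusted p up to 0.121 and 0.176). Ppara itself had means of 9253 ± 643 in WT and 7095 ± 663 in aERKO and was not called (-0.38 ± 0.13, adjusted p = 0.147). Ehhadh, Acot3 and Acot1 were called without the 4 acinar-positive arrays, Cyp4a31 and Bdh1 were not, and the median of the 36 genes was -0.17. Other uncalled members were Acot4 (-0.81 ± 0.22, adjusted p = 0.0765), Cyp4a14 (-0.19 ± 0.07) and Acaa1b (-0.21 ± 0.08).

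Creld2, Manf and Calr were the chaperones and folding factors of the endoplasmic reticulum that were higher. Proteins bound for secretion fold in this compartment, and an excess of unfolded protein induces its chaperones through the transcription factors ATF6 and XBP1. Of 35 genes, 3 were called higher and 0 lower, 32 had positive differences, and the median was 0.23. Over all genes tested, 1.1% were called higher and 45.6% had positive differences. Creld2, a secreted disulfide-handling protein, stood at 807, 769.6 and 1132 in WT and at 2279, 2811 and 1876 in aERKO (1.35 ± 0.18, adjusted p = 0.00102). Manf, a secreted protein induced by unfolded protein, stood at 2504, 1438 and 2256 and at 5220.4, 5914 and 4197 (1.32 ± 0.22, adjusted p = 0.00481). Both kept the call whichever array was left out. Calr, the lectin chaperone calreticulin, stood at 10145, 8694 and 9029 in WT and at 13358, 13542 and 11548 in aERKO (0.46 ± 0.11, adjusted p = 0.0493), but kept the call in 1 of the 6 fits (lost without WT replicate 1, 2 or 3 or aERKO replicate 1 or 2, adjusted p up to 0.216). Sdf2l1 (0.91 ± 0.28, adjusted p = 0.1203) and Hspa5, the chaperone BiP (0.397 ± 0.15, adjusted p = 0.212) were not called. Of 28 genes of translocation into the endoplasmic reticulum and N-glycosylation, 2 were called higher and 0 lower, Srp14 of the signal recognition particle (0.499 ± 0.08, adjusted p = 0.00378) and the signal peptidase subunit Sec11c (0.58 ± 0.105, adjusted p = 0.00914), with a median of 0.13. Sec11c lost the call without aERKO replicate 1 or 2 (adjusted p up to 0.0552). The 16 genes of the integrated stress response had 0 calls in limma (1 gene at an unadjusted p under 0.05) and a median of 0.07. Without the 4 acinar-positive arrays 2 of the 35 chaperone genes were called higher, with a median of 0.27. These were Creld2 and Derl3, the latter not called with all arrays, while Manf (adjusted p = 0.0879), Calr (0.502), Srp14 and Sec11c were not.

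The element through which ATF6 acts is known as the ER stress response element, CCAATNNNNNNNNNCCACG. It was searched on both strands in windows from 250 bases before to 50 bases after the start site, which the RefSeq table (GRCm38.p6) held for 9914 of the 12263 genes. The element was present in 16 of the 9914 windows (0.161%), in 10 of the 30 windows of chaperone genes (33.3%), in 2 of the 107 windows of genes called higher and in 0 of the 81 windows of genes called lower. Manf, also called higher, was not among the 16 genes with the element. The 2 called genes with it were Creld2 and Calr. The 180 bases before the start site are shown for both and for Hspa5, a chaperone gene with the element that was not called, in the direction of transcription, with the fixed letters of the element in capitals.
Creld2: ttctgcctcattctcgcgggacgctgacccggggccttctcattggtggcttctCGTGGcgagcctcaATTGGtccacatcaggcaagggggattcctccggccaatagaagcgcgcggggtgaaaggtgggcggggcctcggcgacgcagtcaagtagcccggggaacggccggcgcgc
Calr: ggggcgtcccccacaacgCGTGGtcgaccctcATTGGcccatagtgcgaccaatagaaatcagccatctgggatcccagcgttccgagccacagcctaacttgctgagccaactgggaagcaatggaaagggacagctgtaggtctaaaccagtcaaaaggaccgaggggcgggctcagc
Hspa5: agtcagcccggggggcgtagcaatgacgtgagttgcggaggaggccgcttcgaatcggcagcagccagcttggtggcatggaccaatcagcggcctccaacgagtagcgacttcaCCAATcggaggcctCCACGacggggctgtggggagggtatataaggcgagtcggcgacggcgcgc These stretches lie at chr15:88819466-88819645 on the plus strand, chr8:84846932-84847111 on the minus strand and chr2:34771910-34772089 on the plus strand. The element begins 126 bases before the start site in Creld2 and 162 before it in Calr, both on the reverse strand, and 65 bases before it in Hspa5 on the forward strand. The chaperone genes with the element had a median difference of 0.404 (log2), and 9 of the 10 were positive. Those without it had a median of 0.198, and 19 of the 20 were positive. The 6 genes with the element outside the list had a median of -0.16, and 2 of them were positive. The palindromic estrogen response element was in 2 of the 9914 windows and in 0 of those of called genes. With an element this rare, its absence from the windows of called genes is uninformative, and sites outside the windows were not searched. The letters TTCNNNGAA, the core of sites bound by STAT factors, were in 8.26% of all windows, in 8.41% of those of genes called higher and in 9.88% of those of genes called lower.

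**Figure D3:**
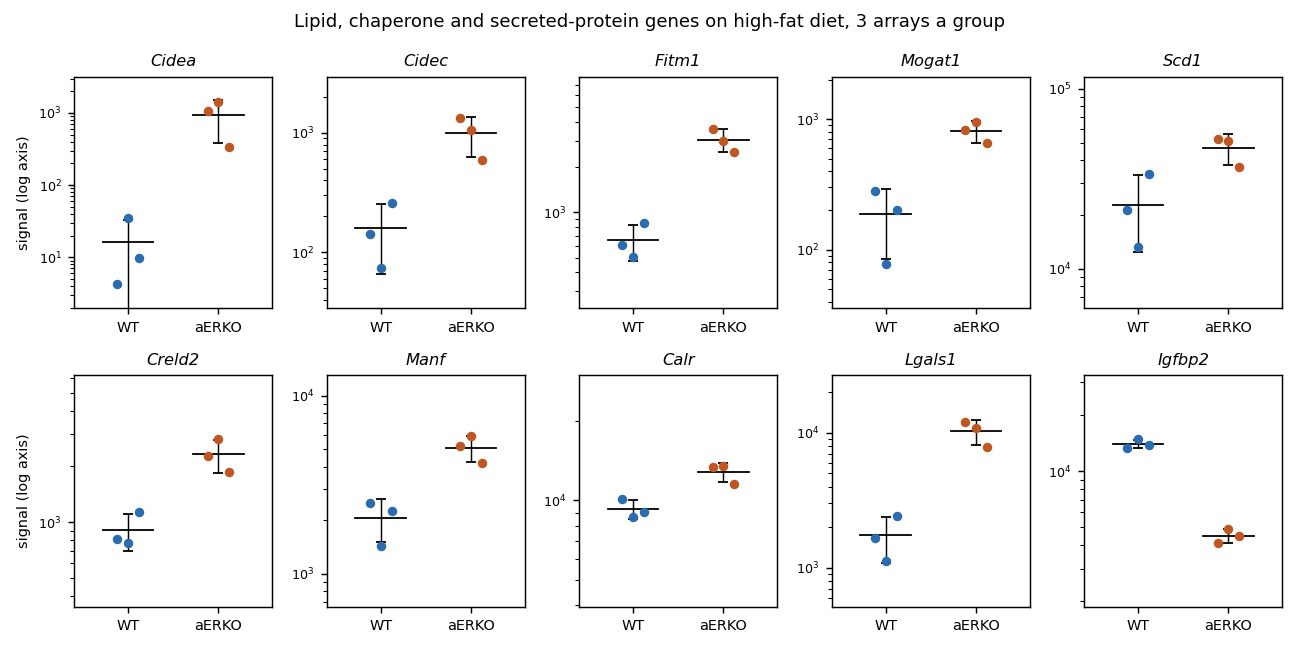
Signals of 10 genes of lipid storage, the endoplasmic reticulum and secretion on each high-fat array, on a log axis, with WT in blue and aERKO in orange and 3 arrays a group. Lines are means and bars are SD, which run off the axis for Cidea, and the WT arrays of Scd1 run from 13222 to 33766.

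Bile acid, steroid and retinoid genes held calls in both directions. Of 28 bile acid genes, 1 was called higher and 2 lower, with a median of -0.09. Cyp39a1, which hydroxylates an oxysterol, stood at 5426, 7624 and 5875 in WT and at 2378, 2255 and 1814 in aERKO (-1.54 ± 0.16, adjusted p = 9.18e-05). It was called in every alternative. Slco1a4, an uptake transporter, was lower (-0.82 ± 0.18, adjusted p = 0.0311) and Baat, which conjugates bile acids, was higher (0.54 ± 0.11, adjusted p = 0.0209). Each of these 2 kept the call in 1 of the 6 fits with an array left out (lost without WT replicate 1, 2 or 3 or aERKO replicate 1 or 3 for Slco1a4 and without WT replicate 1, 2 or 3 or aERKO replicate 1 or 2 for Baat, adjusted p up to 0.14 and 0.116). Cyp8b1, which sets the share of cholic acid among bile acids, had means of 8285 ± 3084 in WT and 15134 ± 1949.8 in aERKO and was not called (0.93 ± 0.28, adjusted p = 0.1202).

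Of 13 hydroxysteroid dehydrogenases, 3 were called higher and 1 lower. Hsd17b6, which oxidises androgens and retinol, stood at 11190, 9459.8 and 13071 in WT and at 4742, 5088 and 3920.4 in aERKO (-1.29 ± 0.14, adjusted p = 0.000144). Its relative Rdh16f2 of the retinol dehydrogenases, outside the list, stood at 12859, 13477 and 12726 and at 3785, 4295 and 4525 (-1.63 ± 0.12, adjusted p = 4.30e-06). Both fell without overlap and with little spread. Hsd17b12, which acts in fatty acid elongation, was higher by 0.797 ± 0.12, the mitochondrial Hsd17b10 by 0.798 ± 0.13 and Hsd3b2 by 0.84 ± 0.19. The call of Hsd3b2 held in 1 of the 6 fits (lost without WT replicate 2 or 3 or aERKO replicate 1, 2 or 3, adjusted p up to 0.109). Of 21 retinoid genes, 2 were called higher and 1 lower. Higher were the aldehyde dehydrogenases Aldh1a7 (1.01 ± 0.13, adjusted p = 0.000499) and Aldh1a1 (0.41 ± 0.08, adjusted p = 0.0148). Lower was Bco1, which cleaves carotene (-0.97 ± 0.22, adjusted p = 0.0386). Aldh1a7 stood at 11615, 10768 and 12930 in WT and at 23900, 25180 and 22157 in aERKO. Aldh1a1 kept the call in 2 of the 6 fits (lost without WT replicate 1 or 2 or aERKO replicate 1 or 2, adjusted p up to 0.088), and Bco1 lost it whichever array was left out (up to 0.163). With Aldh7a1, a dehydrogenase of lysine breakdown (0.399 ± 0.07, lost without WT replicate 1 or 2 or aERKO replicate 1 or 2), 3 of the 20 aldehyde and alcohol dehydrogenases were called higher and 0 lower. Hsd17b6, Rdh16f2 and Aldh1a7 were called without the 4 acinar-positive arrays, and Hsd17b12 and Hsd17b10 were not.

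Among enzymes of foreign compounds, 3 of 20 glutathione transferases were called higher and 1 lower, with a median of 0.27. Gsta2 stood at 2841, 1899.5 and 4618 in WT and at 9953, 8087 and 7149.9 in aERKO (1.504 ± 0.26, adjusted p = 0.00742). Gstm2 was higher by 0.93 ± 0.195 and Gstt2 differed by -0.46 ± 0.11, with adjusted p-values up to 0.131 and 0.175 when an array was left out (Gstm2 lost without WT replicate 1 or 2 or aERKO replicate 1 or 2, Gstt2 without any 1 of the 6 arrays). Of 9 sulfotransferases, 2 were called higher, Sult1b1 (0.86 ± 0.14, adjusted p = 0.00361) and Sult2a8 (0.59 ± 0.12, adjusted p = 0.0226, lost without WT replicate 1 or 3 or aERKO replicate 2 or 3), and 2 lower, the female-biased Sult2a2 and Sult3a1. Of 48 cytochrome P450 genes of families Cyp1 to Cyp4, 3 were called higher and 7 lower. Besides those above, Cyp2c68 stood at 28733, 31449 and 28459 in WT and at 13422, 14583 and 13182 in aERKO (-1.105 ± 0.14, adjusted p = 0.000439). The other calls were Cyp2c70 (-0.92 ± 0.21, lost without WT replicate 1, 2 or 3 or aERKO replicate 1 or 3), Cyp2c37 (-0.45 ± 0.101, lost without WT replicate 1 or 3 or aERKO replicate 1, 2 or 3) and the periportal Cyp2f2 (0.67 ± 0.12, lost without WT replicate 1 or aERKO replicate 2). Abcg2, an efflux pump for urate and drugs, stood at 1718, 2054 and 2001 in WT and at 4569.5, 4990.2 and 4156 in aERKO (1.24 ± 0.11, adjusted p = 4.38e-05). It was the 1 ABC transporter called higher of 38 tested, and 3 were called lower, Abcd2, Abcb1a and Abca8a (-0.78 ± 0.18, lost without WT replicate 1, 2 or 3 or aERKO replicate 1 or 2). Ces2e was the 1 carboxylesterase of 11 called, at 1282, 1192 and 1897 in WT and 4015, 3782 and 2753 in aERKO (1.27 ± 0.18, adjusted p = 0.00153). Gsta2, Abcg2 and Ces2e were called without the 4 acinar-positive arrays, and Sult1b1 and Cyp2c68 were not.

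The complement genes C8a and C9 of the membrane attack complex were higher. Of 18 complement genes 3 were called higher and 0 lower, with a median of 0.03. C8a stood at 3360.5, 4019.5 and 2828 in WT and at 7203, 8923 and 10422 in aERKO (1.37 ± 0.28, adjusted p = 0.0188), and C9 stood at 7209, 6398 and 7654 and at 10891, 13139 and 14261 (0.84 ± 0.14, adjusted p = 0.00575). The call of C8a was lost without WT replicate 1 or 3 or aERKO replicate 2 or 3 (adjusted p up to 0.0858), whereas that of C9 held in all 6 fits. C4bp, an inhibitor of the classical pathway, was higher by 0.52 ± 0.12 (adjusted p = 0.0397, lost without WT replicate 1, 2 or 3 or aERKO replicate 1 or 2). Without the 4 acinar-positive arrays 0 of the 18 were called, and the median was 0.12. Of 22 genes of iron and heme, 1 was called higher and 1 lower. Tfrc, the transferrin receptor, stood at 518, 528 and 867 in WT and at 2205, 1419 and 1167 in aERKO (1.29 ± 0.24, adjusted p = 0.00963), but a second bright probe set went the other way (-0.37), and the call was lost without WT replicate 1 or 2. Hamp2, a hepcidin, stood at 32387, 22670 and 32653 in WT and at 16598, 12014 and 11206 in aERKO (-1.14 ± 0.196, adjusted p = 0.0066). The other probe set of Hamp2 was dim, at 9.59 to 85.6, and gave 0.86. Alas2, the heme synthesis enzyme of red cell precursors, stood at 288, 201 and 211 in WT and at 679.7, 1104 and 962 in aERKO (1.89 ± 0.22, adjusted p = 0.000291). It was the 1 red blood cell marker of 4 on the array that passed the filter, and whether red cells had a part in its difference was not tested.

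Differences of respiratory chain genes were small and mostly positive. Of 85 genes of the respiratory chain and ATP synthase, 1 was called higher and 0 lower, 72 had positive differences, and the median was 0.15. The share called higher was near that of all genes. The call was Uqcr11 of complex III, at 11044, 11087 and 11061 in WT and 17391, 16129 and 14299 in aERKO (0.52 ± 0.09, adjusted p = 0.00575). Of 19 antioxidant genes, 2 were called higher. Gpx4, which reduces lipid peroxides, stood at 7882, 7929 and 8393 in WT and at 17566, 16578 and 12030 in aERKO (0.91 ± 0.14, adjusted p = 0.00356). Nox4, an NADPH oxidase that makes hydrogen peroxide, stood at 1006, 1280.2 and 722 in WT and at 2029, 2169 and 1995 in aERKO (1.07 ± 0.19, adjusted p = 0.00791, lost without aERKO replicate 2). Of 40 genes of amino acid and urea metabolism, 2 were called higher, Kmo of the kynurenine pathway (0.55 ± 0.11, lost without WT replicate 1 or aERKO replicate 1 or 2) and Agxt2 (0.65 ± 0.13, lost without WT replicate 1 or 2 or aERKO replicate 1, 2 or 3). The clock gene Cry1 was the 1 call among 16 circadian genes (0.96 ± 0.22, adjusted p = 0.0398, lost without WT replicate 1 or 2 or aERKO replicate 1 or 3). Without the 4 acinar-positive arrays Uqcr11, Gpx4, Nox4, Kmo, Agxt2 and Cry1 were not called, and 1 of the 16 circadian genes was, the core clock gene Arntl, which was not called with all arrays.

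Several well-known groups held no call or 1. The 20 genes of cholesterol synthesis and uptake had 0 calls in limma (4 genes at an unadjusted p under 0.05), 17 were positive and the median was 0.37. Fdps, for example, had means of 1183 ± 521 in WT and 2823 ± 1814 in aERKO (1.16 ± 0.38, adjusted p = 0.153). The 20 genes of glucose metabolism and insulin signalling had 0 calls (3 genes at an unadjusted p under 0.05), 16 negative differences and a median of -0.204. The 29 acute phase genes had 0 calls (8 genes at an unadjusted p under 0.05) and a median of 0.25. Serum amyloid Saa2 stood at 1589, 1740.2 and 1417 in WT and at 43736, 12223 and 4609.8 in aERKO, which did not overlap but spread widely within aERKO, and was not called (3.09 ± 1.24, adjusted p = 0.243). The 20 coagulation genes had 0 calls (5 genes at an unadjusted p under 0.05). Of 31 interferon-induced genes, 26 were negative and 1 was called, the guanylate-binding protein Gbp3 (-1.004 ± 0.24, adjusted p = 0.0479), which lost the call whichever array was left out. The 12 macrophage markers were all negative, as most of this group were, with 0 called (4 at an unadjusted p under 0.05) and a median of -0.33, and their mean log2 signal was 10.41, 10.35 and 10.81 in WT and 10.31, 10.07 and 10.18 in aERKO. Csf1r, the receptor of macrophage colony-stimulating factor, had means of 7858 ± 971 and 5554 ± 190.3 (-0.49 ± 0.12, adjusted p = 0.0563). Their part in the interferon-induced genes was not tested.

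**Figure D4:**
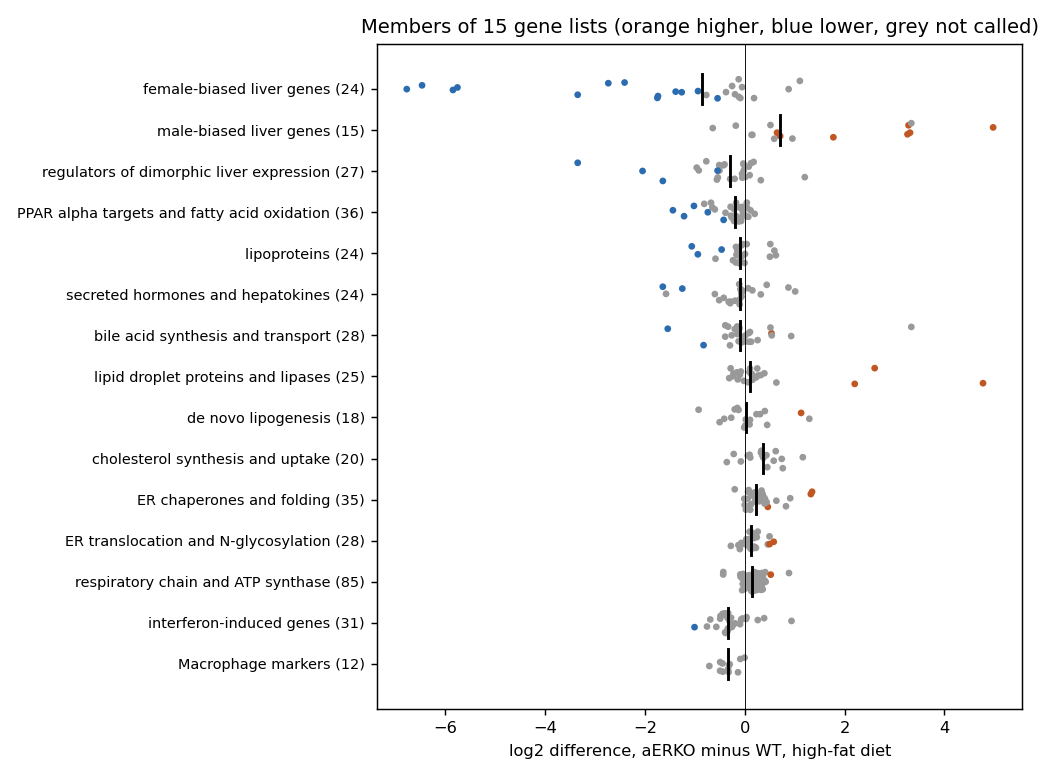
Log2 differences aERKO minus WT on high-fat diet for the members of 15 gene lists, 1 point a gene, with the number tested in parentheses and vertical offsets for legibility. Black bars are list medians, from -0.85 for female-biased to 0.71 for male-biased genes, and orange and blue points are called higher and lower.

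Some of the clearest differences lay outside these groups. Lgals1, which encodes the sugar-binding protein galectin-1, stood at 1665, 1131 and 2422 in WT and at 12100, 10868 and 7916 in aERKO, 6.06-fold higher (adjusted p = 0.000104). A second probe set gave 2.72 on the log2 scale. aERKO replicate 3 was the lowest aERKO array for Lgals1, as for Cidea, Cidec, Fitm1 and Scd1. Tsc22d1, a leucine zipper protein, stood at 2361, 2434 and 2596 in WT and at 6031, 5932 and 7109.9 in aERKO (1.36 ± 0.14, adjusted p = 9.28e-05), and its 4 bright probe sets agreed in direction. Wfdc2, a secreted protein with protease inhibitor domains, stood at 955, 774 and 962 in WT and at 2105, 1982 and 1851 in aERKO (1.13 ± 0.13, adjusted p = 0.000249). Chpt1, the last enzyme of phosphatidylcholine synthesis from choline, stood at 8610.1, 9153 and 9026 and at 18354, 17282 and 19485 (1.04 ± 0.098, adjusted p = 5.45e-05). Each of these 4 genes kept its call in all 6 fits with an array left out, and without the 4 acinar-positive arrays. Others of the 25 largest increases were the water channel Aqp4 (1.71 ± 0.23), the matrix protein Omd (2.82 ± 0.31) and the noncoding RNA Snhg11 (2.66 ± 0.36). In WT, Omd and Snhg11 were under the median of each array, as was Gprc5b, and Ptgds was in aERKO. The increases also took in Themis (2.38 ± 0.54, lost without WT replicate 2 or 3 or aERKO replicate 1, 2 or 3), the orphan receptor gene Gprc5b (2.26 ± 0.52, lost without WT replicate 1 or 2 or aERKO replicate 1 or 2), the RNA polymerase III subunit Polr3k (1.46 ± 0.25), Ociad2 (1.44 ± 0.15), Zfp991 (1.56 ± 0.32, lost without WT replicate 3 or aERKO replicate 1 or 3), the heparan sulfate proteoglycan Gpc1 (1.39 ± 0.33, lost without any 1 of the 6 arrays) and the transcripts 4930480G23Rik (1.41 ± 0.25) and 9130409I23Rik (1.92 ± 0.201).

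On the lower side, Avpr1a, the vasopressin V1a receptor, stood at 792, 909 and 926 in WT and at 290.3, 222 and 299 in aERKO (-1.65 ± 0.17, adjusted p = 9.68e-05). Its second probe set gave -1.41. Ggt5, which cleaves glutathione conjugates, stood at 403, 326 and 335 in WT and at 105, 52.7 and 61 in aERKO (-2.098 ± 0.25, adjusted p = 0.000345), while a dimmer probe set did not follow (0.23). Rnf170, a ubiquitin ligase, differed by -2.12 ± 0.25 in its brightest probe set and by 0.22 in the next, so its direction rests on the probe set. Notum, which inactivates Wnt proteins, stood at 883, 1161 and 770.1 in WT and at 310.4, 422 and 376 in aERKO (-1.297 ± 0.19, adjusted p = 0.00189). Other large decreases were those of Tafa2 (-1.78 ± 0.22), Chic1 (-1.66 ± 0.26), Pcp4l1 (-1.55 ± 0.23), the prostaglandin D synthase Ptgds (-1.68 ± 0.305, lost without WT replicate 1 or 3), the homeobox gene Nkx2-6 (-1.49 ± 0.35, lost without WT replicate 1, 2 or 3 or aERKO replicate 2 or 3) and 9030619P08Rik (-1.58 ± 0.29, lost without WT replicate 2 or aERKO replicate 2). Smaller called differences were found for Serpina6, the corticosteroid-binding globulin (-0.73 ± 0.14, lost without WT replicate 1 or 3 or aERKO replicate 1 or 2), Pigr, the receptor that carries immunoglobulin A into bile (-0.43 ± 0.09, lost without WT replicate 1 or 2 or aERKO replicate 2), and the class I gene H2-Q10 (0.55 ± 0.09). Of the 119 called genes with several bright probe sets, 102 had all of them in 1 direction and 17 did not.

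The 5 called genes nearest the threshold were Bgn, Trp53inp2, Aph1b, Camk1d and Trim24, with adjusted p-values from 0.0493 to 0.0499. Just outside it lay Plekha7 (-1.06 ± 0.26), Ildr2 (-0.55 ± 0.13), Slc31a2 (-0.81 ± 0.196), Tmem189 (0.86 ± 0.21) and the respiratory chain subunit Cox6b1 (0.33 ± 0.08), at adjusted p-values from 0.05002 to 0.0512. Bgn, which encodes the matrix proteoglycan biglycan, differed by -0.62 ± 0.15, and lost the call whichever array was left out.

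Most genotype differences had the same sign on normal diet, where the arrays were different ones. Of the 243 genes, 224 had the same sign there and 82 were also called there, all 82 in the same direction. On normal diet 150 genes (1.22%) were called. Since the 243 genes were picked by the high-fat comparison, the 201 with a larger difference on that diet are a description. The difference between diets in the genotype effect, the interaction, was called for 0 of 12263 genes by limma (smallest adjusted p = 0.177), and 728 genes (5.94%) had an unadjusted p under 0.05. The labels do not say that the diets were matched in other ingredients.

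The clearest differences between diets before adjustment were in Wfdc2, Nat8f5 and Igfbp2. On normal diet Nat8f5 averaged 218 ± 48.98 in WT and 1038 ± 217 in aERKO. On high-fat diet it averaged 127 ± 14.1 and 1896 ± 152. Its genotype difference was larger on high-fat diet by 1.57 ± 0.26 (interaction adjusted p = 0.177, not called). Igfbp2 had means of 12331 ± 2872 in WT and 10287 ± 2175 in aERKO on normal diet, a difference of -0.26 ± 0.17 (adjusted p = 0.592), against 14021 ± 760.4 and 4497 ± 386 on high-fat diet (interaction adjusted p = 0.203). Wfdc2 was level on normal diet, at 708 ± 32.4 and 712 ± 78.2, and apart on high-fat diet, at 897 ± 107 and 1979 ± 127 (interaction adjusted p = 0.177). Avpr1a differed by -0.48 ± 0.17 (adjusted p = 0.2499) on normal diet, less than on high-fat diet (interaction adjusted p = 0.279). None of these differences between diets was called over all genes tested.

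For Cidea, Cidec, Scd1 and Lgals1 the genotype difference was wider on high-fat diet, though none of these differences between diets was called. Cidea had means of 39.1 ± 25.7 and 365 ± 112 on normal diet (2.87 ± 0.52, adjusted p = 0.0133) against 16.5 ± 16.7 and 941 ± 555 on high-fat diet (interaction adjusted p = 0.786). Cidec had 542 ± 352 and 789 ± 31.8 on normal diet (0.76 ± 0.47, adjusted p = 0.566) against 159 ± 93.6 and 997 ± 374 on high-fat diet, where the WT mean was the lowest of the 4 (interaction adjusted p = 0.786). Scd1 had 60016 ± 4423 and 55695 ± 5343 on normal diet against 22723 ± 10359 and 46900 ± 8965 with fat feeding (interaction adjusted p = 0.582). The WT mean of Scd1 was thus lower on high-fat than on normal diet, and the aERKO means were closer together. Lgals1 had 2108 ± 608 and 4322 ± 774 on normal diet against 1739 ± 649 and 10295 ± 2150 with fat feeding (interaction adjusted p = 0.437).

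Several sex-biased genes had smaller differences on high-fat diet, which were not called as differences between diets either. The aERKO mean of Cyp4a12a was 7943 ± 1504 on normal diet and 3239.9 ± 2027 on high-fat diet, with WT at 37.7 ± 36.1 and 78.8 ± 49.5 (interaction adjusted p = 0.713). Hao2 in aERKO had 174 ± 58.4 on normal diet and 767 ± 269.5 on high-fat diet, with WT at 2995 ± 866 and 2599 ± 745 (interaction adjusted p = 0.211). Slc22a27 in aERKO had 121 ± 40.02 and 490.2 ± 97.2 (interaction adjusted p = 0.277), and Cyp2b13 72.1 ± 2.74 and 411 ± 219 (interaction adjusted p = 0.4502). On normal diet the aERKO mean of Cyp2b13 lay under the medians of the aERKO arrays (80.5, 81.9 and 89.95), so its fold there is rough. Over the lists, the median of the male-biased genes was 1.75 on normal diet and 0.71 on high-fat diet, and that of the female-biased genes -0.86 and -0.85. Cyp4a31 was the 1 called PPAR alpha gene whose sign differed, with 0.46 ± 0.21 on normal diet, where it was not called (adjusted p = 0.403, interaction adjusted p = 0.279).

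**Figure D5:**
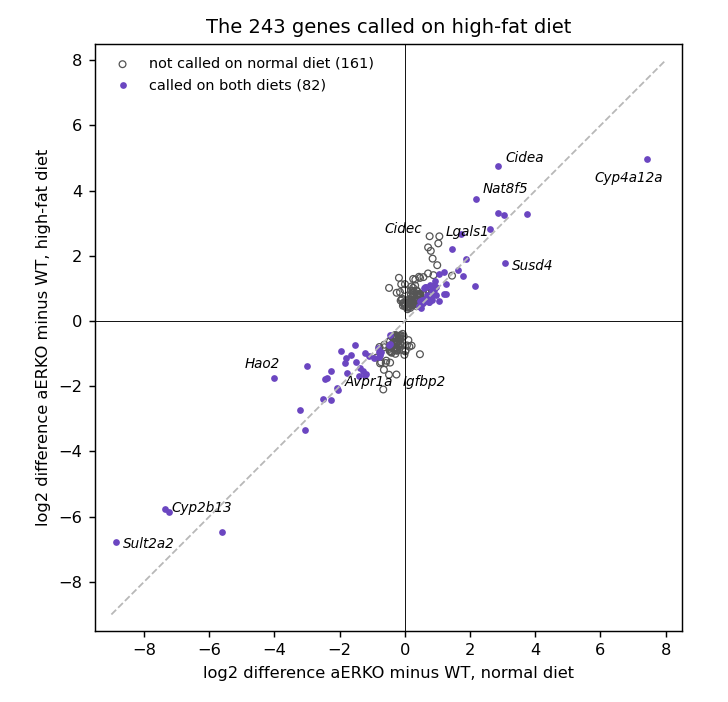
Log2 difference aERKO minus WT on normal diet (x axis) against that on high-fat diet (y axis) for the 243 genes called on high-fat diet, with the dashed line at equality. Filled points are the 82 genes also called on normal diet and open points the other 161, and Igfbp2, Avpr1a, Cidec and Lgals1 lie off the line while Cyp4a12a and Hao2 were further from 0 on normal diet.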

How the data were processed

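Liver RNA was labelled with a 3' expression kit and hybridised to Affymetrix Mouse Genome 430 2.0 arrays. The deposited values are MAS5 signals on a linear intensity scale from Affymetrix Expression Console, per the submitters' processing notes, and the deposited columns have a trimmed mean of 500, the scaling target. Of 45101 probe sets, 34945 had 1 symbol, 932 several and 9211 none in the platform annotation, and 13 were control probe sets. Of 18193 named genes, each taken by its brightest probe set, 12263 were kept, those above the array median on at least 3 of the 12 arrays. Differences were tested on log2(signal + 16) with limma 3.58.1 in R 4.3.3 (lmFit, eBayes with trend, 1 mean per group over all 12 arrays), with Benjamini-Hochberg adjustment over the 12263 genes. The code was tested on simulated data. The number of arrays limits the precision, with a median standard error of 0.202.

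The gene lists and members were chosen with earlier results of these data known. Named genes were Esr1, the 25 largest called differences and the 10 smallest p-values in each direction, called members of lists, a few uncalled members of lists with high signal or a large difference, and the 5 genes on each side of the threshold. Wfdc2, Notum and Arntl fall outside this rule and were chosen after their values were seen, as were the genes set side by side between diets. Alternatives changed the scaling, pseudocount, filter, probe set choice, arrays, trend, array weights, replicate block and covariates. Promoter sequences are from RefSeq (GRCm38.p6).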

Additional observations from a re-analysis of the deposited data

How the results depend on the processing

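The number of called genes depended on which arrays and which variance model were used. Leaving out 1 high-fat array gave 108 to 304 genes in all, 63 to 159 higher and 45 to 145 lower, and 0 to 2 genes for the difference between diets, the 2 arising without aERKO replicate 3. Without the variance trend 116 genes were called (68 higher, 48 lower), and with array weights 944 (454 higher, 490 lower). Without the 4 arrays with pancreatic transcripts 60 were called (33 higher, 27 lower), with fewer samples. Adding the acinar and muscle scores as covariates gave 109 calls (56 higher, 53 lower), and 1 gene for the difference between diets. Median centring left 69 lower genes and the mean of probe sets 70. The causes of these shifts, fewer samples among them, were not tested. The mean of probe sets reversed Rnf181 (-0.033, adjusted p = 0.959) and Sf1 (0.11, adjusted p = 0.912). A fit with the replicate number as a replicate block called 210 genes (116 higher, 94 lower), 191 of them shared with the fit without the block. Deviations of equally numbered high-fat arrays from their group means correlated at -0.09, 0.006 and -0.124 over the genes. The labels do not say that the numbers pair samples, and these values cannot exclude it. The other settings gave 180 to 288 genes in all. Signals near the array median have imprecise differences.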
